A study of Mus musculus with 9 samples.

Results

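Cyclins are the regulatory subunits of the cyclin-dependent kinases (CDKs), and the classes A, B, D and E follow one another through the cell cycle. D-type cyclins bind CDK4 and CDK6 in G1 and respond to growth signals, E-type cyclins bind CDK2 at the entry into S phase, cyclin A2 acts in S phase and G2, and B-type cyclins bind CDK1 and drive mitosis. In fibroblasts the E, A and B genes are transcribed in waves, from E2F sites and from the elements bound by the DREAM and MYBL2-MuvB complexes, whereas D-type transcripts are kept up by mitogens and adhesion through much of the cycle. The data here are the 8 mouse genes Ccnd1, Ccnd2, Ccnd3, Ccne1, Ccne2, Ccna2, Ccnb1 and Ccnb2. They were taken by gene symbol from the 16428 genes of the deposited table.

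The study compared fibroblasts that lack the arginine methyltransferase CARM1, or have it inhibited, with untreated ones. All 9 libraries came from mouse embryonic fibroblasts labelled CARM1f/f ER-Cre, so every group, WT included, carried floxed Carm1 alleles together with ER-Cre, a recombinase that 4-OHT switches on. KO cells received 2 uM 4-OHT, an active tamoxifen metabolite, CARM1i cells received 1 uM of the CARM1 inhibitor TP-064, and WT cells received none, with 6 days of culture and n = 3 libraries in each group. Effects of 4-OHT itself cannot be told apart from those of the deletion, nor effects of a vehicle from those of the inhibitor, because the design has no library for either. The labels do not say whether replicates were separate cultures, and the p-values therefore rest on a spread between libraries that may be technical. KO and CARM1i were both set against the same 3 WT libraries, and the 3 comparisons share libraries pairwise.

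Between 28657018 and 35842771 reads per library were assigned to genes. Values are normalized read counts (reads divided by a size factor for the library), and each cyclin rested on 367 to 14479 reads in every library, so all 8 passed the filter on low values (a mean of at least 10 over the 9 libraries), which left 14560 genes. Log2 fold changes are given ± SE from limma on log2(value + 1), with p-values adjusted by Benjamini-Hochberg over the 14560 genes and a threshold of 0.05. CARM1i replicate 3 stood apart from the others of its group on the third principal component (9.58% of the variance), at -19.5 against 10.97 and 11.7. WT libraries were also spread on that component, at -8.65, -5.68 and 10.3 for WT replicates 1, 2 and 3. The targeted gene Carm1 had 794, 711 and 769.8 normalized counts in KO libraries, 1112, 1072 and 986 in CARM1i libraries and 1079, 1143 and 1091 in WT libraries. Carm1 counts were thus lower in every KO library than in any WT library, at 68.7% of the WT mean (log2 fold change -0.54 ± 0.06, limma adjusted p = 5.493e-07), and did not pass the test in CARM1i against WT (-0.06 ± 0.06, limma adjusted p = 0.496). They cover the whole gene and do not measure the deleted part.

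Of 9 fibroblast markers, 8 were well above the filter and Lum averaged 5.38 normalized counts in KO, 5.77 in CARM1i and 6.74 in WT libraries. The summed level of the 9 was 188777 to 200502 in KO, 222192 to 246699 in CARM1i and 255099 to 264493 in WT libraries, and in KO against WT 7 of the 8 tested fell and 1, Thy1, rose. Of all genes tested, 20.5% fell and 21.4% rose in that comparison. The lowest fold changes among the markers were those of the collagen genes Col3a1, at -1.27 ± 0.06, and Col1a1, at -0.94 ± 0.06 (limma adjusted p = 1.844e-11 and 1.255e-09). For other cell types, 3 of 7 macrophage markers (Adgre1, Ptprc and Itgam), 3 of 4 epithelial markers (Epcam, Cdh1 and Krt8) and all 4 skeletal muscle markers had no row among the genes analysed here. The 4 macrophage markers present summed to 292 to 334 normalized counts in KO, 294 to 323 in CARM1i and 253 to 318 in WT libraries. Those ranges overlap, but in KO against WT Cd68 rose (0.98 ± 0.27, limma adjusted p = 0.00704) and Cd14 fell (-0.43 ± 0.14, limma adjusted p = 0.0214), while Csf1r and Mrc1 did not pass. The endothelial markers summed to 288 to 341 in KO, 239 to 262 in CARM1i and 264 to 299.7 in WT libraries, most of it from Tek. Pecam1 was below the filter, and none of the 3 tested passed. In KO against WT, Cdh5 and Kdr differed by 0.57 ± 0.26 and 0.69 ± 0.29 (limma adjusted p = 0.0836 and 0.0691). Tek differed by 0.02 ± 0.11 (limma adjusted p = 0.923). Krt18, the epithelial marker present, averaged 112 in KO, 39.2 in CARM1i and 38.0 in WT libraries and rose in KO against WT (1.58 ± 0.25, limma adjusted p = 4.58e-05). The neural markers present, Tubb3 and Nes, summed to 288 to 305 in KO, 468 to 478 in CARM1i and 567 to 688 in WT libraries, and the cartilage marker present, Sox9, ran from 659 to 805, 488 to 587 and 549 to 645 in KO, CARM1i and WT libraries. Tubb3 and Nes fell and Sox9 rose in KO against WT (limma adjusted p = 2.073e-06, 3.544e-08 and 0.00603). The part of any shift in cell makeup in the cyclin results was not tested. In bulk RNA, fewer cells of a kind, such as cells in S phase or mitosis, and less RNA per cell cannot be told apart.

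In KO against WT, the 5 E-, A- and B-type cyclins fell and the D-type cyclins Ccnd1 and Ccnd2 rose, while Ccnd3 did not pass the test. That is 7 of 8 past the threshold, where 41.9% of all genes tested were past it, 20.5% as lower and 21.4% as higher. In the same 7 genes no KO library overlapped the WT range, which held for 52.6% of all genes. The median log2 fold change of the 8 was -0.74, beside -0.0043 over all genes. In CARM1i against WT, Ccna2, Ccnb1, Ccnb2 and Ccne2 fell, none rose and the other 4 did not pass, where 19.1% of all genes were past the threshold, 10.5% as higher and 8.59% as lower. The median of the 8 was -0.27, beside -0.0047 over all genes, and 5 cyclins did not overlap between the groups, against 33.4% of all genes. In CARM1i against KO, the E-, A- and B-type cyclins were higher, Ccnd1 and Ccnd2 were lower and Ccnd3 did not pass. There 7 of 8 were past the threshold and without overlap, against 23.6% (12.1% higher, 11.5% lower) and 36.9% of all genes, and the median was 0.46, beside -0.0021 over all genes.

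**Figure D1:**
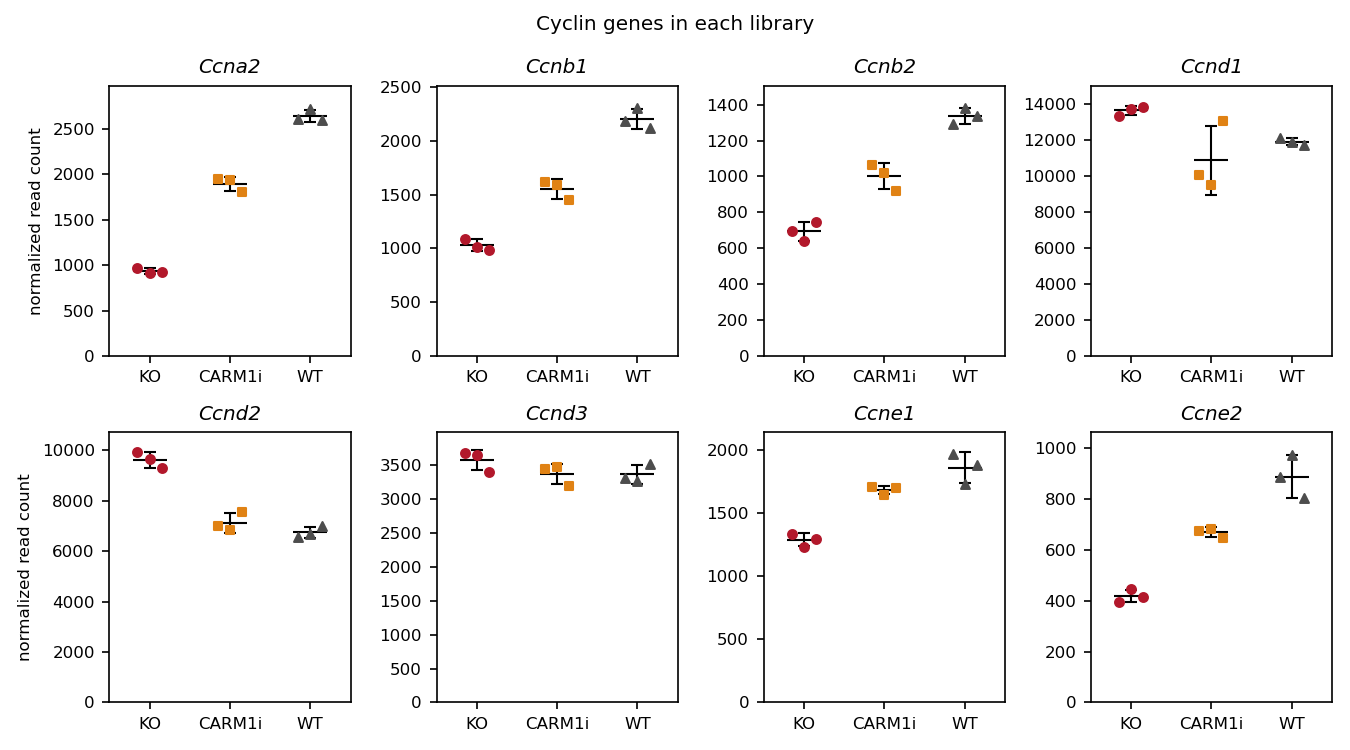
Normalized read count (y axis, linear from 0) of each cyclin gene in the 3 KO, 3 CARM1i and 3 WT libraries, one point per library, with the group mean as a wide bar and the SD as whiskers. Ccna2, Ccnb1, Ccnb2, Ccne1 and Ccne2 step up over KO, CARM1i and WT without overlap, narrowly so between CARM1i and WT in Ccne1. Ccnd2 is highest in KO, and the third CARM1i point of Ccnd1 lies apart from the other 2.

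The D-type cyclins couple growth signals to the cell cycle. Ccnd1 (cyclin D1; mm10 chromosome 7, 144929931 to 144939925, minus strand) had 13324, 13722 and 13811 normalized counts in KO libraries, 10044, 9469 and 13049 in CARM1i libraries and 12096, 11840.1 and 11708 in WT libraries. All KO libraries lay above all WT libraries, and CARM1i replicate 3 lay above WT while the other 2 CARM1i libraries lay below it. Ccnd1 rose in KO against WT by 0.20 ± 0.07 (limma adjusted p = 0.0414), but the adjusted p was 0.0630 to 0.114 without any single KO or WT library, 0.05955 after rescaling to a common total, 0.0946 after quantile normalization, 0.196 without the variance trend and 0.202 with DESeq2 on the recovered reads. In CARM1i against WT it did not pass (-0.14 ± 0.07, 95% interval -0.30 to 0.01, limma adjusted p = 0.199). Without CARM1i replicate 3 the value became -0.28 in CARM1i against WT (limma adjusted p = 1.512e-06). Leaving out that library cannot change the difference in KO against WT, which stayed at 0.20. Its SE fell to 0.03 (limma adjusted p = 7.63e-06). A fit of the KO and WT libraries alone gave 0.20 ± 0.03 (limma adjusted p = 7.633e-06). In CARM1i against KO, Ccnd1 was lower (-0.34 ± 0.07, limma adjusted p = 0.00241), a call that was lost without the variance trend (adjusted p = 0.0722).

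Ccnd2 (cyclin D2; chromosome 6, 127125162 to 127152193, minus strand) had 9919.9, 9651 and 9306 normalized counts in KO libraries, 6985, 6826 and 7573 in CARM1i libraries and 6569, 6699 and 6997 in WT libraries. The KO libraries stood clear of both other groups, which overlapped each other. Its level was 142% of the WT mean in KO libraries (0.51 ± 0.04, limma adjusted p = 8.167e-09) and 106% in CARM1i libraries (0.08 ± 0.04, 95% interval -0.01 to 0.16, limma adjusted p = 0.202). The inhibitor libraries were lower than the KO libraries (-0.43 ± 0.04, limma adjusted p = 2.556e-07).

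Ccnd3 (cyclin D3; chromosome 17, 47505051 to 47599691, plus strand) had 3676, 3658 and 3404 normalized counts in KO libraries, 3444, 3471 and 3196 in CARM1i libraries and 3306, 3269 and 3519.9 in WT libraries. All 3 groups overlapped. The differences were 0.09 ± 0.04 in KO against WT (95% interval -0.0015 to 0.18, limma adjusted p = 0.108), 0.0021 ± 0.04 in CARM1i against WT (-0.09 to 0.09, adjusted p = 0.981) and -0.09 ± 0.04 in CARM1i against KO (-0.18 to 0.0037, adjusted p = 0.164). In KO against WT the adjusted p was 0.0460 without KO replicate 3 and 0.0412 without WT replicate 3.

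The E-type cyclins activate CDK2 at the start of DNA replication. Ccne1 (cyclin E1; chromosome 7, 38097984 to 38107534, minus strand) had 1336, 1233 and 1299 normalized counts in KO libraries, 1709, 1647 and 1701 in CARM1i libraries and 1972, 1731 and 1879 in WT libraries. The 3 groups did not overlap, although the highest CARM1i and the lowest WT library lay close together. It fell in KO against WT by 0.53 ± 0.05 (limma adjusted p = 1.087e-07). In CARM1i against WT the difference was -0.14 ± 0.05 (limma adjusted p = 0.0576), and it was past the threshold under 4 of 20 alternatives, among them edgeR on the recovered reads (adjusted p = 0.0465), rescaling to a common total (0.0286) and leaving out WT replicate 2 (0.0191). In CARM1i against KO, Ccne1 was higher by 0.39 ± 0.05 (limma adjusted p = 1.541e-05).

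Ccne2 (cyclin E2; chromosome 4, 11191351 to 11204779, plus strand) had 397, 445 and 413 normalized counts in KO libraries, 676, 684 and 647 in CARM1i libraries and 889, 973 and 803 in WT libraries. The groups lay in 3 separate ranges. Its level was 47.1% of the WT mean in KO libraries (-1.08 ± 0.07, limma adjusted p = 1.11e-09) and 75.3% in CARM1i libraries (-0.40 ± 0.07, limma adjusted p = 5.614e-04), and it was higher in CARM1i than in KO libraries by 0.68 ± 0.07 (limma adjusted p = 1.712e-06).

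Cyclin A2 pairs with CDK2 and CDK1 in S phase and G2. Ccna2 (chromosome 3, 36564865 to 36572150, minus strand) had 967, 911 and 925 normalized counts in KO libraries, 1944, 1939 and 1808 in CARM1i libraries and 2607, 2713 and 2601 in WT libraries. Each group kept to a narrow range of its own. Among the 8 cyclins it had the lowest fold change in KO against WT, at 35.4% of the WT mean (-1.50 ± 0.04, limma adjusted p = 5.599e-14), which ranked 88 from the bottom among the 14560 genes. In CARM1i against WT its level was 71.8% (-0.48 ± 0.04, limma adjusted p = 7.07e-07), and in CARM1i against KO it was 2.03-fold higher (1.02 ± 0.04, limma adjusted p = 6.759e-11).

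The B-type cyclins bind CDK1 and trigger mitosis; cyclin B1 is the form required for it in mice. Ccnb1 (chromosome 13, 100778650 to 100786570, minus strand) had 1090.3, 1018 and 989 normalized counts in KO libraries, 1622, 1592.5 and 1450.2 in CARM1i libraries and 2189.5, 2304 and 2125 in WT libraries. Ccnb2 (cyclin B2; chromosome 9, 70407692 to 70421547, minus strand) had 696, 641 and 745 normalized counts in KO libraries, 1063, 1022 and 920.1 in CARM1i libraries and 1295, 1382 and 1337 in WT libraries. In both genes the groups were separate, with CARM1i between KO and WT and CARM1i replicate 3 the lowest of its group. Ccnb1 fell by 1.09 ± 0.05 in KO against WT and by 0.51 ± 0.05 in CARM1i against WT (limma adjusted p = 1.482e-11 and 2.51e-06). Ccnb2 fell by 0.95 ± 0.06 and by 0.42 ± 0.06 in the same comparisons (limma adjusted p = 1.275e-09 and 1.194e-04). In CARM1i against KO they were higher by 0.59 ± 0.05 and 0.53 ± 0.06 (limma adjusted p = 1.903e-07 and 7.722e-06).

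**Figure D2:**
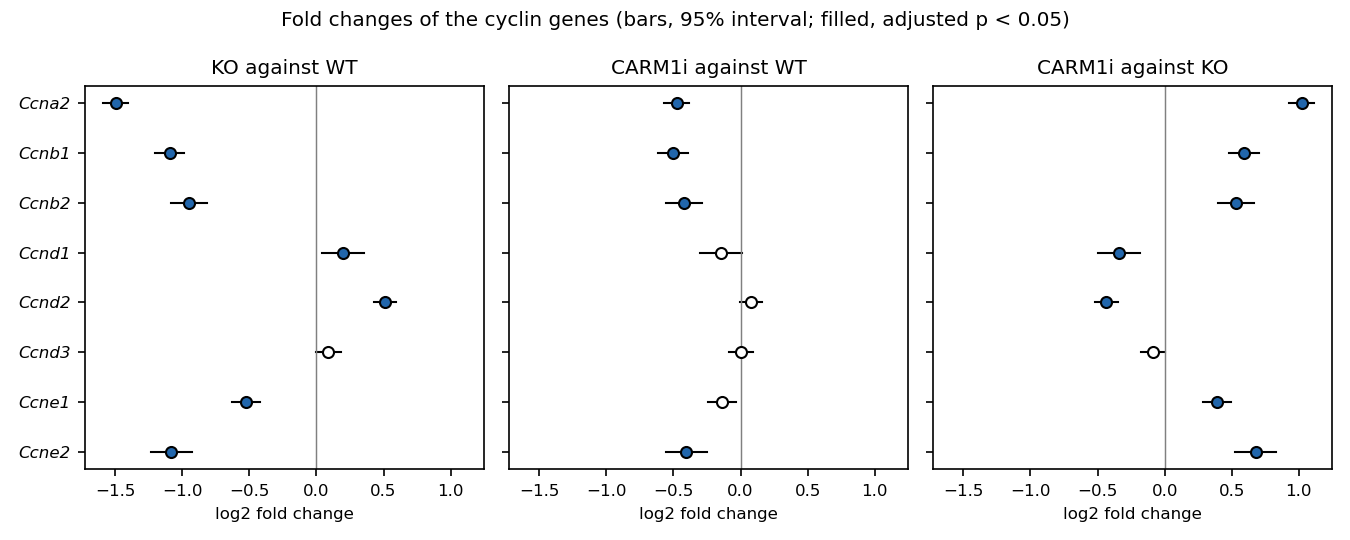
Log2 fold change (x axis) of each cyclin gene in KO against WT, CARM1i against WT and CARM1i against KO, with the 95% interval from limma as a bar and filled points for adjusted p under 0.05. The A, B and E genes lie left of 0 against WT, from -1.50 to -0.53 in KO and from -0.51 to -0.14 in CARM1i, and right of 0 in CARM1i against KO.

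Promoter sequence was available from RefSeq (GRCm38.p6) for 4 of the 8 genes, Ccnb1, Ccnb2, Ccne1 and Ccnd3, and not for Ccna2, Ccnd1, Ccnd2 and Ccne2. The stretches below are shown so that the B-type genes, which fell in both comparisons, can be read beside an E-type gene and the D-type gene that did not pass. Each is the 250 bases before the RefSeq start, 5′ to 3′ on the strand of the gene. Capitals mark every match, on either strand, to 4 motifs: the CCAAT box (CCAAT), which NF-Y binds, the cell cycle homology region or CHR (TTTGAA) and its variant (TTTAAA), which DREAM and MYBL2-MuvB bind, and an E2F-type site (TTTNNCGC). The windows searched ran a further 50 bases past the start, and the annotated GENCODE start lies 84 bases upstream of the RefSeq start in Ccnb1, 44 bases upstream in Ccne1 and 7 bases downstream in Ccnb2.
Ccnb1, chr13:100786487-100786736, minus strand: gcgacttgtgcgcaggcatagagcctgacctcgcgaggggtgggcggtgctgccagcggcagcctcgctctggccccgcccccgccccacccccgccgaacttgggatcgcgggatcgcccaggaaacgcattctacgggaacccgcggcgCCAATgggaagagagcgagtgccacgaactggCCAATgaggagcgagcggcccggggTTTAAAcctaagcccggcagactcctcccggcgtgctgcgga
Ccnb2, chr9:70421555-70421804, minus strand: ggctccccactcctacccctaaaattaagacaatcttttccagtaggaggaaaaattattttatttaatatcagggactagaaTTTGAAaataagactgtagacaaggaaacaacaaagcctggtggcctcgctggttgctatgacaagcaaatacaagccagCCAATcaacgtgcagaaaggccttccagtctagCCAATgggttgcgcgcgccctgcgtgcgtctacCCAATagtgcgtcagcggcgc
Ccnb2, across the start, chr9:70421537-70421558, minus strand: gcgcggtaTTTGAAtcgcggac
Ccne1, chr7:38107491-38107740, minus strand: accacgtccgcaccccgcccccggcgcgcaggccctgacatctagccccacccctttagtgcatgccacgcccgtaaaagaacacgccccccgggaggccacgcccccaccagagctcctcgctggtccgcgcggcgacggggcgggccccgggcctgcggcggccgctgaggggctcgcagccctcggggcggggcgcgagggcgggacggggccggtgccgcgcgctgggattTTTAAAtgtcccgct
Ccnd3, first start, chr17:47504801-47505050, plus strand: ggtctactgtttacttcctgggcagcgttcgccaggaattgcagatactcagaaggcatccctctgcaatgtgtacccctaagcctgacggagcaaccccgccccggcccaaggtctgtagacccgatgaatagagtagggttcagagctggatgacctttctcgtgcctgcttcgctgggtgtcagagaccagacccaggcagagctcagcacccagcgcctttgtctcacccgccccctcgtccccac

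The Ccnb2 window held 3 CCAAT boxes, beginning 87, 54 and 21 bases before the start and so spaced 33 bases apart, and 2 TTTGAA matches. One of these began 167 bases before the start and the other lay at bases 5 to 10 after it, in the short stretch printed across the start. Ccnb1 held 2 CCAAT boxes, beginning 99 and 67 bases before the start and 32 bases apart, with TTTAAA beginning 42 bases before the start. Ccne1 held no CCAAT and 1 TTTAAA, beginning 15 bases before the start. The Ccnd3 window printed held none of the 4 motifs, while the window at its other RefSeq start, 88416 bases downstream, held 1 CCAAT. Which of these starts the cells used was not tested. TTTNNCGC had no match in any window of the 4 genes. Over 32851 mouse promoter windows of 300 bases, 37.4% held CCAAT, 11.7% held at least 2 and 3.37% at least 3. TTTGAA was in 17.9% of the windows and at least 2 copies in 2.31%, TTTAAA in 13.2% and TTTNNCGC in 5.17%. These matches describe letters in a window and measure no binding.

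Ratios between members of a class within a library do not depend on how libraries are scaled. Ccne2 to Ccne1, as a ratio of normalized counts, was 0.297, 0.361 and 0.318 in KO libraries, 0.396, 0.416 and 0.380 in CARM1i libraries and 0.451, 0.562 and 0.427 in WT libraries. These ranges did not overlap, and the log2 ratio differed by -0.56 in KO against WT, by -0.26 in CARM1i against WT and by 0.29 in CARM1i against KO. Each gave p = 0.1 in an exact two-sided permutation test, the smallest that 3 libraries against 3 allow (20 splits), and 0.2 after adjustment over the 12 ratio tests made. Without WT replicate 2 the difference in CARM1i against WT was -0.15. Ccnd2 to Ccnd1 was 0.745, 0.703 and 0.674 in KO libraries, 0.695, 0.721 and 0.580 in CARM1i libraries and 0.543, 0.566 and 0.598 in WT libraries. KO lay above WT (log2 difference 0.31, exact permutation p = 0.1), while CARM1i overlapped both KO (-0.09, exact permutation p = 0.5) and WT (0.22, exact permutation p = 0.2). Ccnb2 to Ccnb1 was 0.638, 0.630 and 0.753 in KO libraries, 0.655, 0.642 and 0.634 in CARM1i libraries and 0.591, 0.5998 and 0.629 in WT libraries. Both KO and CARM1i lay above WT without overlap, by 0.15 and 0.09 on the log2 scale (exact permutation p = 0.1 each), with the lowest KO ratio at 0.6297 and the highest WT ratio at 0.6291; without KO replicate 3 the KO difference was 0.06. Ccnd3 to Ccnd1 overlapped in all 3 comparisons (exact permutation p = 0.2 to 0.4).

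**Figure D3:**
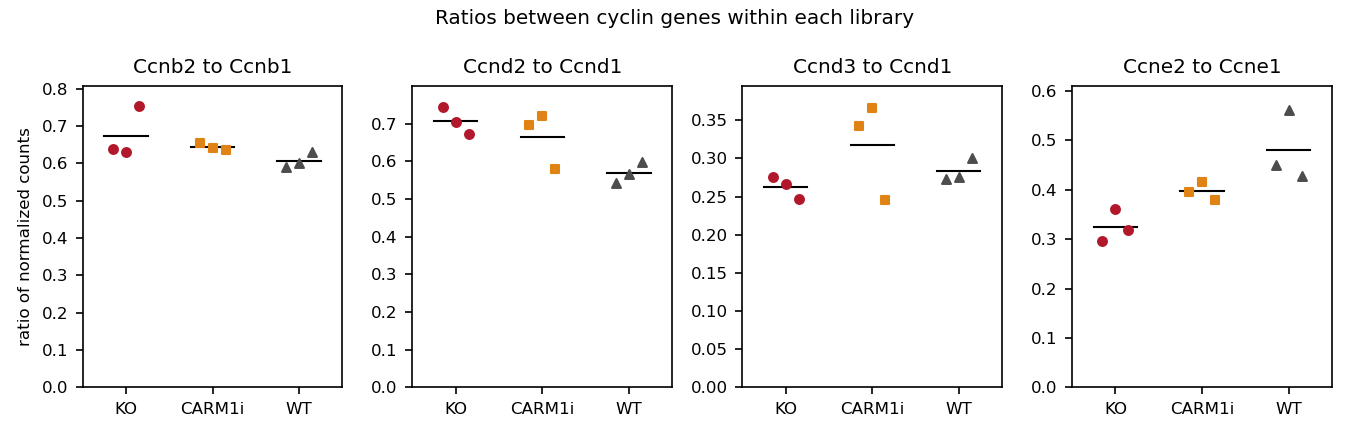
Ratio of normalized counts (y axis, linear from 0) between cyclins of a class in each KO, CARM1i and WT library, one point per library, with the group mean as a line. The Ccne2 to Ccne1 ratio runs from 0.297 to 0.361 in KO, 0.380 to 0.416 in CARM1i and 0.427 to 0.562 in WT; in both D-type ratios CARM1i replicate 3 lies apart from the other 2.

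Levels were compared between genes per kilobase of the principal transcript. Ccnd1 was the highest in every group, at 3641 ± 69.4 normalized counts per kilobase in KO, 2902 ± 514 in CARM1i and 3177 ± 52.7 in WT libraries (SD, n = 3 each), and Ccne2 the lowest, at 139 ± 8.11, 223 ± 6.61 and 295 ± 28.3 in KO, CARM1i and WT libraries. Ccnd3 and Ccnd2 came next after Ccnd1 in all groups, without overlap between them. In WT libraries Ccne1 (930.3 ± 60.5), Ccna2 (891 ± 21.2), Ccnb1 (886 ± 36.5) and Ccnb2 (874 ± 28.6) followed, and neighbours in that order overlapped. In KO libraries the order below Ccnd2 was Ccne1 (645 ± 26.0), Ccnb2 (453 ± 33.9), Ccnb1 (415 ± 20.9) and Ccna2 (315 ± 9.80), and only Ccnb2 and Ccnb1 overlapped. In CARM1i libraries Ccne1 (843 ± 16.9) was above Ccnb2 (654 ± 48.0), Ccna2 (639.8 ± 26.0) and Ccnb1 (625 ± 36.9), and neighbours among the last 3 overlapped. Over the union of all annotated exons, Ccnd1 stayed highest and Ccne2 lowest in each group, but Ccnd3, whose exons span 8775 bases beside 2113 in its principal transcript, dropped from its place to the fifth in KO, the sixth in CARM1i and the seventh in WT.

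Summed per kilobase, the D-type genes made up 77.7 ± 0.666% of the 8 cyclins in KO libraries, 65.2 ± 2.76% in CARM1i libraries and 60.1 ± 0.649% in WT libraries (SD, n = 3 each). The A- and B-type genes made up 13.4 ± 0.475% in KO, 22.4 ± 2.22% in CARM1i and 27.3 ± 0.849% in WT libraries. The E-type share was 8.88 ± 0.191% in KO libraries, 12.4 ± 0.544% in CARM1i libraries and 12.6 ± 0.493% in WT libraries. CARM1i replicate 3, at 68.4% D-type and 19.8% A- and B-type, lay nearer to KO than CARM1i replicates 1 and 2 did, at 63.8% and 63.6% D-type.

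**Figure D4:**
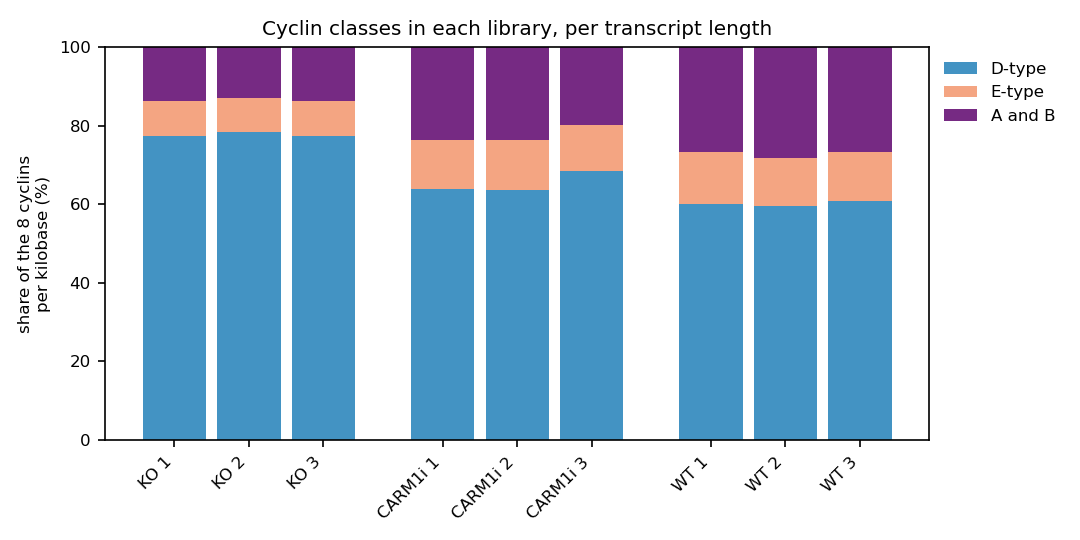
Share of the summed level of the 8 cyclins per kilobase of principal transcript (y axis, %) held by D-type, E-type, and A- and B-type genes, one stacked bar per library, with KO, CARM1i and WT libraries side by side. The D-type part fills 77.3 to 78.5% of the KO bars, 63.6 to 68.4% of the CARM1i bars and 59.5 to 60.8% of the WT bars.

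Of the 4 kinases that the cyclins activate, Cdk1, Cdk2, Cdk4 and Cdk6, 2 fell in KO against WT (3 without CARM1i replicate 3) and 3 fell in CARM1i against WT (2 without that library), where 20.5% and 8.59% of all genes tested fell. In CARM1i against KO, 3 were higher and 1, Cdk6, was lower, where 12.1% of all genes were higher and 11.5% lower. Cdk1, the mitotic kinase, averaged 3128 ± 117 normalized counts in KO, 4579 ± 181 in CARM1i and 6239 ± 123 in WT libraries (SD, n = 3 each), and fell by 1.00 ± 0.04 in KO against WT (limma adjusted p = 8.605e-13). Cdk2, the partner of cyclins E and A, averaged 869.9 ± 50.8 in KO, 1214 ± 79.6 in CARM1i and 1367 ± 61.9 in WT libraries and fell by 0.65 ± 0.06 in KO against WT (limma adjusted p = 5.752e-08). The D-type partners Cdk4 and Cdk6 each differed by -0.07 in KO against WT (limma adjusted p = 0.0737 and 0.202), and Cdk6 fell by 0.21 ± 0.04 in CARM1i against WT (limma adjusted p = 0.00125). Of the 3 subunits of the CDK-activating kinase, Ccnh (cyclin H) fell in KO against WT (-0.25 ± 0.07, limma adjusted p = 0.00575) and in CARM1i against WT (-0.21 ± 0.07, limma adjusted p = 0.0340), and Cdk7 and Mnat1 did not pass in either.

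Among 7 CDK inhibitor genes, 3 rose and 3 fell in KO against WT, with a median of -0.11, where 21.4% of all genes rose and 20.5% fell. Cdkn1a (p21), which binds cyclin-CDK2 and is a p53 target, averaged 4143 ± 30.5 normalized counts in KO, 3173 ± 230 in CARM1i and 3259 ± 135 in WT libraries, and rose by 0.35 ± 0.05 in KO against WT (limma adjusted p = 6.232e-06). Cdkn2a, the locus of p16 and ARF, rose by 0.31 ± 0.05 in KO against WT (limma adjusted p = 3.745e-05) and by 0.16 ± 0.05 in CARM1i against WT (limma adjusted p = 0.0293). Cdkn1b (p27) averaged 665 ± 30.1 in KO, 993 ± 52.2 in CARM1i and 1185 ± 21.5 in WT libraries and fell by 0.83 ± 0.05 in KO against WT (limma adjusted p = 9.495e-10). Cdkn2c (p18) fell in KO against WT by 0.75 ± 0.07 (limma adjusted p = 2.06e-07). In CARM1i against WT, Cdkn2a rose, Cdkn1b fell and 5 did not pass, where 10.5% of all genes rose and 8.59% fell. Without CARM1i replicate 3, 1 gene fell and none rose there.

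All 7 genes for CDK phosphatases, inhibitory kinases and small CDK-binding subunits fell in KO against WT (median -0.81) and 4 fell in CARM1i against WT (median -0.22), while all 7 were higher in CARM1i than in KO (median 0.51). The shares of all genes called in those directions were 20.5%, 8.59% and 12.1%. Cdc25c and Cdc25b, phosphatases that activate CDK1, fell by 1.34 ± 0.09 and by 1.16 ± 0.08 in KO against WT (limma adjusted p = 2.121e-09 and 2.561e-09). Cks2 and Cks1b, small subunits of the CDK complexes, fell by 0.81 ± 0.06 and by 0.65 ± 0.05 (limma adjusted p = 2.54e-09 and 5.752e-09). In KO against WT 8 of 10 genes of the ubiquitin ligases that act on cyclins fell and none rose (median -0.46). Fbxw7 and Ambra1, at 0.0076 ± 0.05 and -0.03 ± 0.05, did not pass (limma adjusted p = 0.917 and 0.674). Both were named after their values were seen. The list holds ligase subunits together with the conjugating enzymes Ube2c and Ube2s and the inhibitor Fbxo5. Falls in CARM1i against WT numbered 6 of 10 (median -0.20), and 7 of 10 were higher in CARM1i than in KO (median 0.29). The shares of all genes were the same as above. Fbxo5, the APC/C inhibitor EMI1, averaged 485 ± 51.0 normalized counts in KO, 1032 ± 31.1 in CARM1i and 1485 ± 88.7 in WT libraries and fell by 1.62 ± 0.07 in KO against WT (limma adjusted p = 3.35e-12). Cdc20, the mitotic activator of the APC/C, and Ube2c, its ubiquitin-conjugating enzyme, fell by 0.99 ± 0.06 and by 1.13 ± 0.09 (limma adjusted p = 7.17e-10 and 9.235e-09). Ccnf (cyclin F), an F-box protein, fell by 0.88 ± 0.08 (limma adjusted p = 4.042e-08).

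Of 19 genes for E2F, retinoblastoma-family and DREAM/MuvB proteins, which transcribe or repress the E, A and B cyclins, 10 fell and 1 rose in KO against WT (median -0.22), where 20.5% of all genes fell and 21.4% rose. In CARM1i against WT 7 fell and none rose (median -0.09; 8.59% of all genes fell), and in CARM1i against KO 9 were higher and none lower (12.1% of all genes were higher). Mybl2, which binds MuvB in S phase, averaged 261 ± 16.5 normalized counts in KO, 523 ± 71.8 in CARM1i and 730.2 ± 47.1 in WT libraries, and fell by 1.48 ± 0.09 in KO against WT (limma adjusted p = 4.379e-10). Foxm1, which joins MuvB in G2, fell by 0.94 ± 0.05 in KO against WT (limma adjusted p = 7.501e-11). Rbl1 (p107) and Lin9, a MuvB subunit, fell by 1.07 ± 0.07 and by 0.85 ± 0.06 (limma adjusted p = 2.026e-09 and 1.747e-09). The gene that rose was Rbl2 (p130), at 0.20 ± 0.06 (limma adjusted p = 0.0106), and E2f1 and Rb1, at -0.0026 ± 0.05 and 0.05 ± 0.06, did not pass (limma adjusted p = 0.973 and 0.506); these 3 were named after their values were seen.

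Among the other cyclin family genes, of 18 listed, 15 were tested and Ccna1, Ccnb3 and Ccnjl had no row among the genes analysed here. In KO against WT 5 fell, 1 rose and 9 did not pass (median -0.11), and in CARM1i against WT 4 fell and 11 did not pass (median -0.08). Of all genes tested, 41.9% and 19.1% passed in these comparisons, so the 6 of 15 and 4 of 15 called here are near the share over all genes. The 6 past the threshold in KO against WT included Ccnf and Ccnh, described above, and Ccng1 (cyclin G1, a p53 target), which rose by 0.39 ± 0.04 with 21949 ± 682 normalized counts in KO, 15914 ± 811 in CARM1i and 16759 ± 458 in WT libraries (limma adjusted p = 1.216e-07). Ccng2 (cyclin G2) fell by 0.22 ± 0.05 in KO against WT (limma adjusted p = 0.00224).

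**Figure D5:**
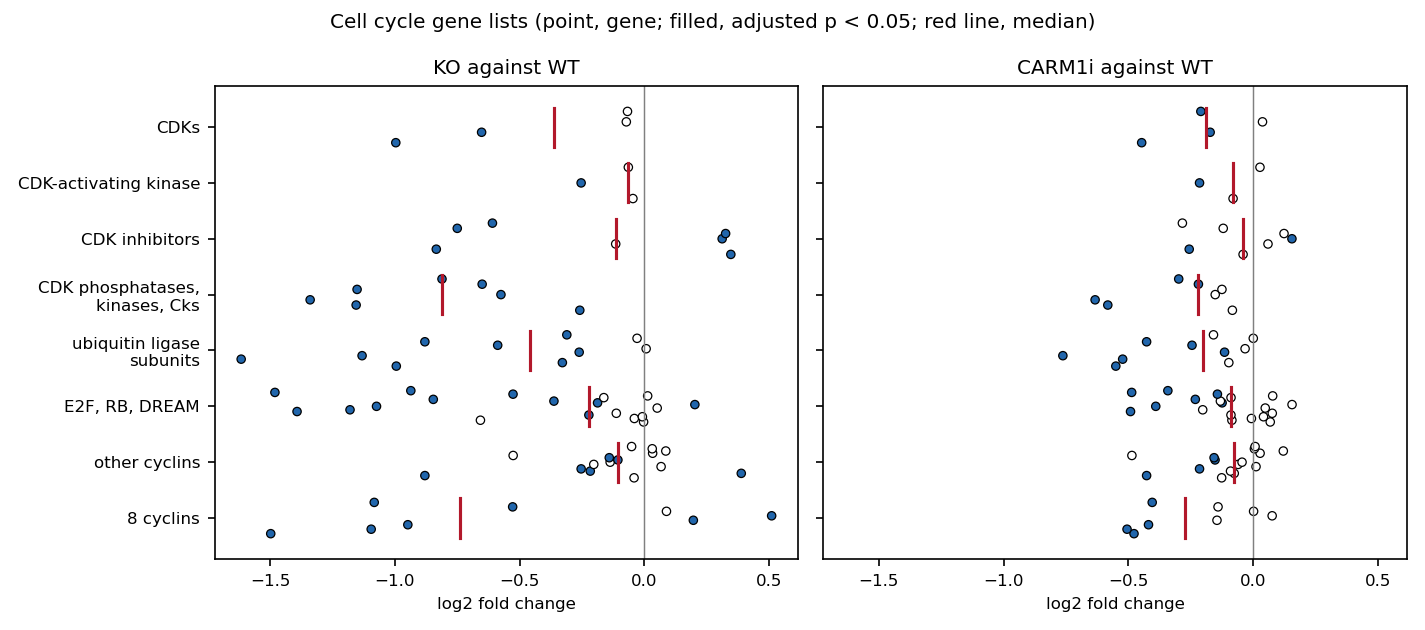
Log2 fold change (x axis) in KO against WT and in CARM1i against WT of the tested genes of 7 cell cycle lists and of the 8 cyclins, one point per gene, filled for limma adjusted p under 0.05, with the list median as a red line. The medians lie between -0.81 and -0.06 in KO against WT and between -0.27 and -0.04 in CARM1i against WT; Ccnf and Ccnh stand in 2 lists each.

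The genes whose values ran most like each cyclin over the 9 libraries were found by Pearson correlation of log2 values among 10424 candidates with a mean of at least 100. The points share their 3 groups and their library scaling, and the correlations are given as a description. Ccna2 ran with the histone genes Hist1h2bk and Hist1h2ak and with Racgap1, which acts in cytokinesis (r = 0.998 each). Ccnb1 ran with Fhod3, Fhl1 and Fst (r = 0.997 to 0.998), a formin, a LIM-domain protein and follistatin, and Ccnb2 with Ube2s and Cip2a (r = 0.995 and 0.993). For Ccne2 the 3 were Srrt, Kif20b and Sgo2a (r = 0.996 to 0.997), and for Ccne1 they were Faap100, Zfp948 and Iws1 (r = 0.991 to 0.993). Ccnd2 ran with Mcfd2, Ccbe1 and Arl6ip1 (r = 0.989 to 0.992). Ccnd1 ran with Acta1, Ankrd1 and Cox14 (r = 0.950 to 0.964). Acta1 encodes skeletal muscle actin and Ankrd1 an ankyrin-repeat protein of muscle. Ankrd1 had 3388, 3399 and 3341 normalized counts in KO libraries, 2533, 2391 and 3156 in CARM1i libraries and 2834, 2715 and 2699.8 in WT libraries, with CARM1i replicate 3 again above the other 2 of its group. Ccnd3 had the weakest matches, Runx1t1, Rpn2 and Stx18 (r = 0.926 to 0.944).

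Overlap with exons of other genes could affect the counts at some of the loci. The strand setting of the counting is not given in the sources used here. On the opposite strand, exons of Exosc9 overlap Ccna2 by 510 bases, those of Ints8 overlap Ccne2 by 609, those of Bysl overlap Ccnd3 by 361 and those of LTO1 overlap Ccnd1 by 1100. Of these 4 neighbours only Ints8 passed the test in KO against WT (-0.13 ± 0.05, limma adjusted p = 0.0397), and none passed in CARM1i against WT. Of all genes tested, 41.9% and 19.1% passed in these comparisons. The antisense genes 9330179D12Rik and Gm43126 overlap Ccnd2 by 368 and 372 bases, and 9330179D12Rik averaged 5.35 normalized counts in KO, 5.77 in CARM1i and 9.73 in WT libraries. The processed pseudogene Ccnb1-ps averaged 11.7 in KO, 18.9 in CARM1i and 17.6 in WT libraries, beside at least 989 for Ccnb1 in any library.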

How the data were processed

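Per the labels' protocols, 9 stranded poly(A) mRNA libraries of mouse embryonic fibroblasts were sequenced. Per the submitters' processing notes, build mm10 was used with HTSeq 0.6.0, TopHat2 2.0.10 and DESeq 1.18.0. How HTSeq treated strand, and with which annotation, is not given in the sources used here. In their table the authors deposited a signal per gene and library, read counts divided by size factors (0.925 to 1.16), for 16428 genes; 100% of the values were whole multiples of 1 read (tolerance 1e-06), and every gene had at least 10 reads in at least 1 library. IDs were matched to GENCODE M21 names (16413 without version, 15 unmatched).

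Because the values are normalized, limma 3.58.1 (R 4.3.3) with a variance trend was fitted on log2(value + 1), which understates the change of low genes, for genes with a mean of at least 10, with all 9 libraries in 3 groups. Alternatives were DESeq2 1.42.0 and edgeR 4.0.16, both run on recovered reads, other filters, scalings, pseudocounts and thresholds, the replicate number as a block, and leaving out each library. Ratios within libraries were compared by exact permutation. The fit was tested on simulated data. Promoter windows came from RefSeq. The rule for named genes took all 8 cyclins, Carm1, up to 4 genes of each list by smallest adjusted p in KO against WT, and the 3 genes most like each cyclin, of which 1 is not reported here. The cyclins and lists were chosen with earlier results of these data known.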

Additional observations from a re-analysis of the deposited data

How the results depend on the processing

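Over 480 alternative values for the 8 cyclins (20 per gene and comparison), 456 kept their direction and their side of the threshold, 11 lost the call, 7 gained one and 6 turned sign. Some alternatives cannot change a fold change, so there only the call could move. They are the other filters, no variance trend, the block, the compared groups alone and leaving out a library of the third group. Ccna2, Ccnb1, Ccnb2 and Ccne2 stayed past the threshold and Ccnd2 stayed past it against WT in KO and against KO in CARM1i, in every alternative run. The lost calls were Ccnd1, 10 in KO against WT (adjusted p 0.05955 to 0.202) and 1 in CARM1i against KO. All 6 turned signs were Ccnd3 in CARM1i against WT, near 0 throughout: -0.0249 after quantile normalization, -0.0141 after rescaling to a common total, and -0.0195 to 0.0399 over libraries left out. The number of cyclins past the threshold was 4 to 5 for CARM1i against WT and 6 to 7 for each of the other comparisons. Over all genes, CARM1i against WT gave 2784 calls, 1797 without the variance trend and 1668 at an adjusted p under 0.01, and CARM1i against KO gave 3436 and, at 0.01, 2155. In CARM1i against KO the Ccnb2 to Ccnb1 ratio ran from -0.1070 to 0.0221 (positive without KO replicate 3) and the Ccnd2 to Ccnd1 ratio from -0.1535 to 0.0029 (positive without CARM1i replicate 3) over libraries left out. The causes were not tested.

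Replicate numbers did not pair the libraries: deviations of same-numbered libraries correlated at -0.087 to 0.027 (9 pairs) and those of others at -0.037 to 0.074 (18 pairs). With the replicate number as a block, 5865 genes passed for KO and 2553 for CARM1i, each against WT, and 3156 for CARM1i against KO, with 7, 5 and 7 cyclins; the call gained was Ccne1 in CARM1i against WT (adjusted p = 0.0357). In this balanced design the block cannot change a difference of group means, so the ratios have the same values with it. Leaving out CARM1i replicate 3 from the list counts was chosen after seeing the data; it moved 1 of 21 counts by over 1.5 times, the CDK inhibitors in CARM1i against WT, which numbered 1 without it and 2 with it. Each cyclin had at least 367 reads in every library, and 3 libraries a group limit the exact tests of ratios to p = 0.1.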
